A study of Mus musculus with 3 samples.

Results

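Cycling conventional type 1 dendritic cells (cDC1) of the mouse spleen were chosen by their own transcripts. A barcode was kept with 500 or more genes, at most 10% mitochondrial UMIs (unique molecular identifiers, each standing for 1 captured RNA molecule) and a top hashtag at 5 or more times the second. It was taken as cDC1 with 6 or more UMIs of Xcr1, Clec9a, Cadm1 and Naaa together, at least 1 of them from Xcr1 or Clec9a, and low or no counts of genes that mark plasmacytoid, type 2 or mature dendritic cells and erythroid cells. It was taken as cycling with 3 or more UMIs of Mki67, Top2a and Pclaf together. This selected 942 cells out of 3954 cDC1, 21547 kept barcodes and 38717 barcodes in the series. The selecting genes are described below and not tested.

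The cells came from spleens of C57BL/6 mice, either leukemia-bearing or wild-type (WT), that had been given panobinostat, an inhibitor of histone deacetylases, or vehicle for 2 days. Dendritic cells were enriched on a density gradient, by a sort for GFP-negative cells and by magnetic negative selection; the sources name this route for the leukemia-bearing mice and do not say whether WT spleens were sorted too. Antibody tags for CD11c and Siglec-H were added, 6 hashtagged samples were pooled, and 1 capture with 10x 3′ v3 chemistry gave the gene, hashtag and antibody counts. The order of hashed samples used throughout is vehicle 1 and 2 of leukemia, then panobinostat 1 and 2 of leukemia, then the vehicle sample of WT and last its panobinostat sample, with the code D5W in the hashtag name read as 5% dextrose vehicle and LBH as panobinostat. The sources used here give neither the leukemia line, nor ages, nor whether a hashed sample is 1 animal, so p-values measure the spread between these hashed samples. WT has 1 hashed sample per treatment and no replicate.

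Splenic cDC1 take up dead cells, carry Clec9a and the chemokine receptor Xcr1, and cross-present antigen to CD8 T cells on MHC class I. They arise from precursors of the bone marrow and still divide in the spleen. A dividing cell first makes the enzymes of DNA replication in S phase and then, in G2 and mitosis, the cyclins, kinesins and spindle proteins that separate the chromosomes.

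Genes of the last step often share short promoter elements, the cell cycle homology region (CHR, letters TTTGAA) and the CCAAT box, while S-phase promoters often hold a core site for E2F factors (the letters TTCCCGC, the letters TTGGCGC, the letters TTCGCGC, or the letters TTGCCGC). To show CHR and CCAAT letters, 4 promoters are printed, of Ube2c, which was lower in leukemia below, and of 3 genes not called there with all cells. Each is the 120 bases before the start site (RefSeq, GRCm38.p6), 5′ to 3′ along the gene, with capitals marking CHR and CCAAT letters on either strand. No E2F core lies in any of the 4 stretches. Ube2c and Cdc20 hold both kinds of letters, while Ccnb2 and Mcm5 hold CCAAT letters alone. Ube2c, which hands ubiquitin to mitotic cyclins, lies on the plus strand (chr2:164769809-164769928). Cdc20, the activator of the same ligase, lies on the minus strand (chr4:118437344-118437463). Ccnb2, a mitotic cyclin, lies on the minus strand (chr9:70421555-70421674). Mcm5, a subunit of the replicative helicase, is shown as the S-phase example on the plus strand (chr8:75109389-75109508).
Ube2c: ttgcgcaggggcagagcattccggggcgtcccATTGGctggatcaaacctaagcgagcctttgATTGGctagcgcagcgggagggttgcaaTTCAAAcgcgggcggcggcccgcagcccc
Cdc20: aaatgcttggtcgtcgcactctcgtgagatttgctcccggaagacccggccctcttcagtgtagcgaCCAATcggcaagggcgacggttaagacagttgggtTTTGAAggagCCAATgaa
Ccnb2: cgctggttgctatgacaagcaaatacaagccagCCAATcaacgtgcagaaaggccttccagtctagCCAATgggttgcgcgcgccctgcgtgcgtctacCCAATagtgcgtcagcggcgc
Mcm5: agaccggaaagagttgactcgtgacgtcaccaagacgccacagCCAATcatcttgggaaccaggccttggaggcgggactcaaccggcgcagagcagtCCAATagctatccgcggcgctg
Over windows from 250 bases before to 50 after the start site, both strands searched, CHR letters were in 29 of 41 matched G2/M genes (70.7%), 6 of 35 matched S-phase genes (17.1%) and 20.2% of 27025 genes. The E2F core was in 22.0% of the G2/M genes, 68.6% of the S-phase genes and 10.9% of all genes, and the CCAAT box in 78.0%, 60% and 41.1%. A match describes letters in a window and not a bound site.

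The cycling cDC1 held 20238 UMIs of the 3 selecting cycle genes. Pclaf, a PCNA-binding protein of S phase, gave 9561 of them, Top2a, the topoisomerase that untangles chromosomes, 5878, and Mki67, the mitotic chromosome coat protein, 4799. The median cell had 16 such UMIs, and 557 cells had 12 or more. At the threshold, 202 cDC1 just outside had 2 UMIs and a summed S-phase list of 1113 UMIs per 1000000 UMIs (CPM), and 102 cells just inside had 3 UMIs and 1525 CPM, against 3602 CPM in the cells with 12 or more.

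The cDC1 markers were present. Means over the 6 hashed samples of the cycling cells were 82.8 CPM ± 13.5 (SD) for Gcsam and 465 CPM ± 106 for Ifi205, both outside the rule. Other cDC1 genes outside the rule were far above cycling type 2 cells (cDC2) of the same samples. The median log2 ratio was 4.37 over the 19 listed genes at 50 CPM or more, with a mean of 4.47 for Cd8a. Cst3, the cystatin C gene, is not in that list and had a mean log2 ratio of 3.93. Xcr1 was at 447, 462, 457, 433, 333 and 373 CPM in the order of samples above, and Naaa, a lysosomal amidase, at 791, 788, 721, 696, 569 and 733 CPM. Summed markers of T cells reached at most 5.50 CPM and of natural killer cells at most 13.5 CPM, with Ncr1, Klra8 and Gzma at 0. Lists of other types ran, in summed CPM, from 174 to 218 for plasmacytoid, 41.7 to 82.6 for type 2 and 35.6 to 53.2 for mature dendritic cells, each outside the rule genes. Markers of monocytes and neutrophils ran from 108 to 315 CPM, highest in leukemia vehicle 2. Those of mast cells, basophils and progenitors ran from 107 to 202 CPM.

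A set of erythroid and progenitor transcripts ran through the same cells. Of the 942 cells, 173 (18.4%) held 5 or more UMIs of Car1 plus Car2, the carbonic anhydrases of red cell precursors, against 1.07% of non-cycling cDC1 and 16.3% of cycling cDC2. The cut fell in a gap, since 409 cells held 0, 360 held 1 to 4, 3 held 5 to 9 and 170 held 10 or more. Cells with 5 or more are called Car cells below.
They made up 11 of 90, 17 of 81, 19 of 106, 21 of 138, 71 of 251 and 34 of 276 cells, which is 12.2, 21.0, 17.9, 15.2, 28.3 and 12.3%. WT vehicle had the highest share. Car cells had a median of 28977 UMIs, 122 globin UMIs and 9 UMIs of the mast cell and progenitor genes Ms4a2, Hdc, Cpa3 and Gata2. The other 769 cells had medians of 17949, 9 and 0.
The CD11c antibody median was 2870 in Car cells and 3670 in the others. Summed erythroid markers ran from 1657 to 3933 CPM over the hashed samples with Car cells and from 432 to 488 CPM without, with Slc4a1 and Alas2 at 0 by the rule. Whether these cells are doublets, or carry such RNA themselves, was not tested. Results are therefore given with and without Car cells, an alternative added after the data were seen. The hashtag filter removed barcodes with several tags, and no doublets were called within a hashed sample.

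The mean cycling share of cDC1 was higher in the panobinostat samples. With 3 hashed samples per treatment the exact permutation p cannot fall below 0.1, so the test could not call a difference of any size. The cycling share of cDC1 was 22.4% in leukemia vehicle 1 (95% exact binomial interval 18.4 to 26.8%), 28.3% in leukemia vehicle 2 (23.2 to 33.9%), 25.9% in leukemia panobinostat 1 (21.7 to 30.4%) and 36.9% in leukemia panobinostat 2 (32.0 to 42.0%). It was 16.2% in WT vehicle (14.4 to 18.1%) and 29.7% in WT panobinostat (26.8 to 32.8%). These intervals cover counting error alone. The highest share was in a panobinostat sample and the lowest in WT vehicle, and the groups overlapped, because leukemia vehicle 2 lay above leukemia panobinostat 1.
The means were 30.8% ± 5.61 (SD, n = 3) with panobinostat and 22.3% ± 6.08 (SD, n = 3) with vehicle. The two-sided exact permutation p was 0.2 (adjusted 0.5 over 5 measures), where 0.1 is the smallest the design allows, and 0.333 when permuted within disease, where 0.167 is the smallest. Without Car cells the shares were 20.4, 24.5, 22.5, 33.3, 12.3 and 27.6%, with means of 27.8% ± 5.40 and 19.1% ± 6.22 and the same exact permutation p of 0.2.
The leukemia panobinostat mean was 6.02 points above its vehicle mean, and WT panobinostat 13.5 points above WT vehicle. Thinned to 4000 UMIs per cell, which evens out depth and leaves out 92 shallower cells, the shares were 14.1, 14.7, 18.0, 22.97, 9.13 and 19.98%, with each panobinostat sample above each vehicle sample (exact permutation p = 0.1, the smallest possible). At 2000 UMIs per cell the groups overlapped again (exact permutation p = 0.2).

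**Figure D1:**
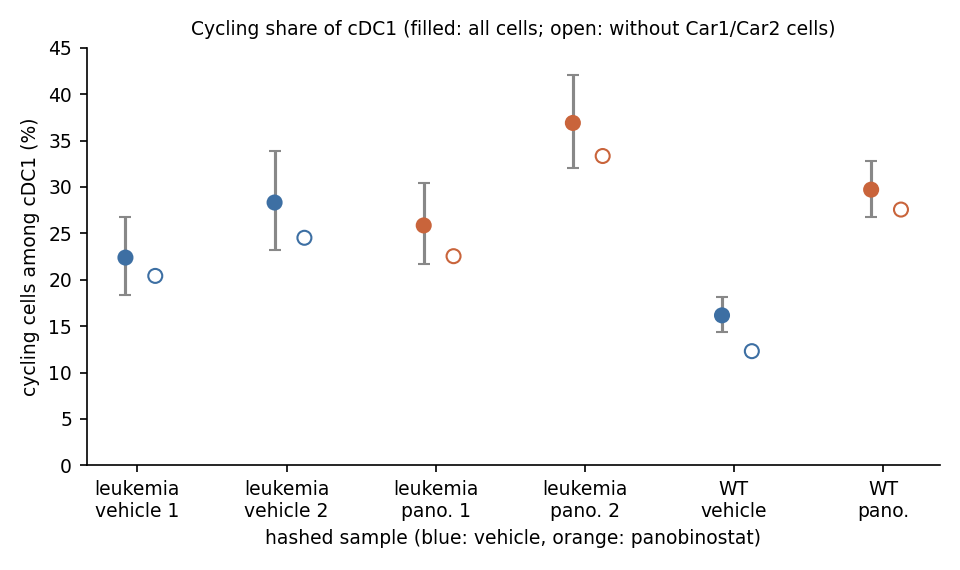
Share of cDC1 with 3 or more UMIs of Mki67, Top2a and Pclaf in each hashed sample (vertical axis, percent), vehicle in blue and panobinostat in orange. Filled points with 95% exact binomial bars are all cells and open points leave out Car cells; WT vehicle is lowest at 16.2% and leukemia panobinostat 2 highest at 36.9%.

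CD11c, the integrin used to identify dendritic cells, was measured by an antibody that took no part in the rule, and cycling cDC1 carried more of it than non-cycling cDC1 (those with 0 UMIs of the 3 cycle genes) in all 6 hashed samples. The median antibody count per cycling cell was 3170, 3351, 3244, 3427, 3785 and 3850 UMIs. In non-cycling cells it was 2632, 2955, 2426, 2003, 2740 and 2678 UMIs. The lowest cycling median lay above the highest non-cycling one.
The ratio ran from 1.13 in leukemia vehicle 2 to 1.71 in leukemia panobinostat 2, with a mean of 1.36-fold (log2 0.44 ± 0.21 SD, n = 6 pairs). It was higher in 6 of 6, with an exact sign-flip permutation p of 0.03125, the smallest that 6 pairs allow, and 0.0625 after adjustment over 6 measures. Without Car cells the ratio was 1.40-fold, again in 6 of 6.
Other tags and depth moved too. The cell's own hashtag was 1.26-fold higher in cycling cells in 6 of 6 (exact sign-flip permutation p = 0.03125), gene UMIs were 1.74-fold higher, and Siglec-H, the plasmacytoid receptor, was 1.04-fold higher in 5 of 6 (exact sign-flip permutation p = 0.0625). The part of cell size or general tag uptake in the CD11c ratio was not tested. CD11c RNA, from Itgax, had a mean log2 ratio of CPM of -0.19 with all cells, higher in 1 of 6 samples, and of 0.00145 without Car cells, higher in 4 of 6.
Panobinostat and vehicle medians of CD11c in cycling cells overlapped (exact permutation p = 0.7, log2 difference 0.03). Against cycling cDC2 the ratio was 1.07 (exact sign-flip permutation p = 0.438), above 1 in 5 of 6, with the exception of leukemia vehicle 2 at 0.829.

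**Figure D2:**
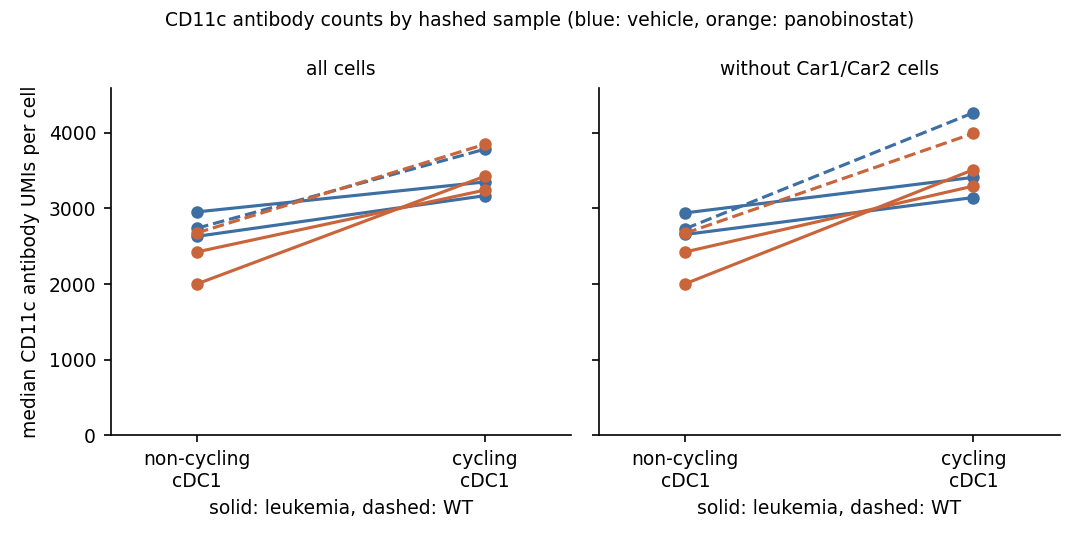
Median CD11c antibody UMIs per cell (vertical axis) in non-cycling and cycling cDC1, 1 line per hashed sample, solid for leukemia and dashed for WT, blue for vehicle and orange for panobinostat; left with all cells, right without Car cells. All 6 lines rise in both panels, by 1.36-fold and 1.40-fold on average.

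Within the cycle, cycling cDC1 leaned more to S phase than cycling cDC2 of the same sample. The S-phase share is the UMIs of 43 S-phase genes over those plus the UMIs of 48 G2/M genes, with the selecting genes left out. In cycling cDC1 it was 40.5, 39.2, 44.2, 44.4, 36.3 and 34.4%. In cycling cDC2 it was 34.5, 26.4, 29.4, 39.2, 36.0 and 33.7%. The cDC1 value was higher in 6 of 6, though by under 1 point in both WT samples.
The mean difference was 6.65 points ± 6.03 (SD, n = 6 pairs; exact sign-flip permutation p = 0.03125, the smallest possible, adjusted 0.0625 over 6 measures). Without Car cells the cDC1 shares were 43.6, 43.1, 45.6, 45.8, 38.1 and 35.7% and the difference was 11.3 points, in 6 of 6. The cycling cDC2 numbered 331, with 25 to 125 per hashed sample, and were chosen by the same 3 cycle genes. Their median depth was 9419 UMIs, against 19428.5 UMIs in cycling cDC1. Without Car cells the median UMIs of the 3 cycle genes were 21 in cycling cDC2 and 14 in cycling cDC1. The part of depth or of the cycle gene threshold in this difference was not tested.
All 4 leukemia samples had a higher S-phase share in cycling cDC1 than both WT samples. Panobinostat against vehicle gave 41.0% ± 5.68 and 38.7% ± 2.12 (SD, n = 3 each; exact permutation p = 0.6), with overlapping groups.

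**Figure D3:**
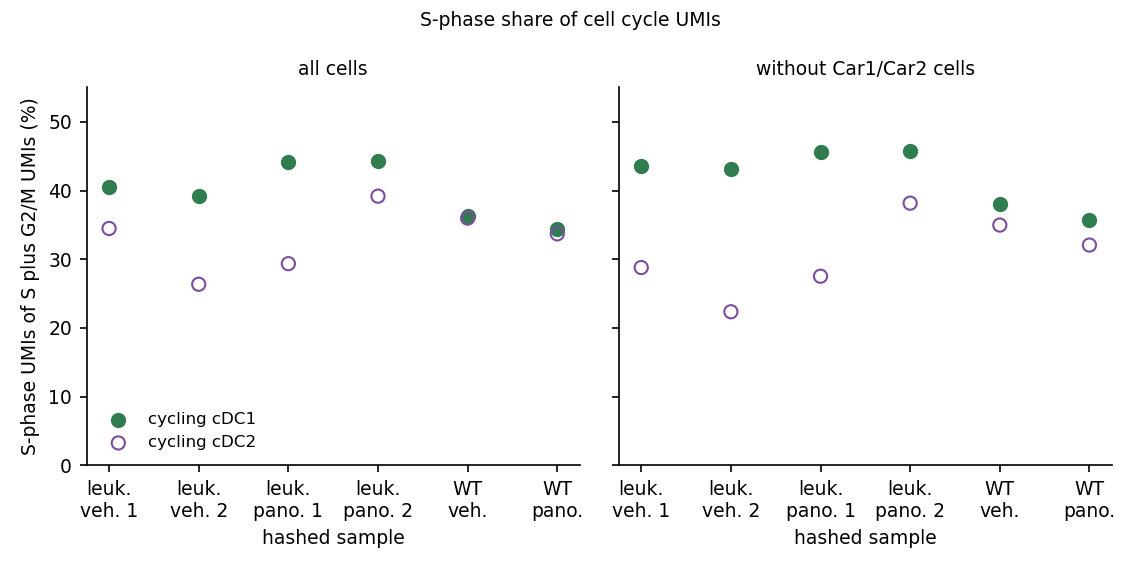
S-phase UMIs as a percentage of S-phase plus G2/M UMIs (vertical axis) in cycling cDC1 (filled) and cycling cDC2 (open) of each hashed sample, with all cells and without Car cells. The filled point is above the open one in each sample of both panels, and the leukemia cDC1 points (39.2 to 44.4% with all cells) lie above the WT ones.

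Single cells spread across the cycle. Of 936 cells with 10 or more such UMIs, 397 (42.4%) had an S-phase share under 40%, 264 (28.2%) between 40 and 60%, and 275 (29.4%) above 60%, with 288 cells within 5 points of a boundary, so these are ranges and not cell types. Car cells were 99, 50 and 24 of them. Cells above 60% made up 42.7, 35.0, 36.2 and 30.7% of the leukemia samples in order, 25.3% of WT vehicle and 23.9% of WT panobinostat. Xcr1, Clec9a and the other identity genes were not part of this split, and the median log2 ratio of CPM of the 19 cDC1 genes outside the rule at 50 CPM or more between the upper and lower range was 0.03. Transcripts of the 5 clustered histone genes at 50 CPM or more had a median log2 ratio of -1.79 on the same scale, so they were higher in the range led by G2/M genes.

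Beside non-cycling cDC1 of the same sample, which is a description since the rule used this contrast, 1108 of 2366 genes at 50 CPM or more were higher in all 6 hashed samples (46.8%) and 498 were lower in all 6 (21%). All 26 S-phase genes at that level were higher (median log2 ratio 2.41), as were all 21 G2/M genes (3.94) and all 8 genes of nucleotide and polyamine synthesis (0.95). Outside these lists, Esco2, the acetyltransferase that ties sister chromatids together, was at 48.0, 44.8, 47.0, 55.2, 58.2 and 54.1 CPM in cycling and 0.798 to 3.01 CPM in non-cycling cells. Stmn1, which destabilises microtubules, was at 742 CPM ± 53.4 against 47.3 CPM ± 11.2.
MHC class II genes took a smaller part of the RNA. They were lower in all 6 samples in 10 of 12 (median log2 ratio -0.48), and without Car cells also in 10 of 12 (-0.35). MHC class I and loading genes were mixed, with 9 of 13 lower and 2 higher in all 6 (median -0.16), and 5 lower and 4 higher without Car cells (-0.11). Among 19 cDC1 genes outside the rule at that level, 14 were lower in all 6 (median -0.30), and 10 without Car cells (-0.16). Batf3, the transcription factor that cDC1 need to develop, kept a ratio near 1, at a log2 of -0.01 with and 0.17 without Car cells. Itgae, the CD103 chain, was lower at -0.81 and -0.76. Erythroid markers turned direction, with a median of 1.40 over 3 genes with Car cells and -0.43 over 2 genes without.

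Few genes were called with panobinostat in cycling cDC1, a number that moved with the samples and settings used, as given below. By edgeR's quasi-likelihood test with disease as covariate, 22 of 9311 genes rose (0.236%) and 4 fell (0.043%) at an adjusted p of 0.05, with 789 genes at an unadjusted p under that value. DESeq2 called 14 and 2. Without Car cells 29 of 8511 rose (0.341%) and 17 fell (0.2%), and 21 of the 22 and 2 of the 4 were called in both. Of the 26 genes called with all cells, 22 moved the same way in non-cycling cDC1, and 13 of these were called there too. Both classes came from the same hashed samples, so the non-cycling values are not a separate replication. The share of all tested genes that moved the same way in both classes was not counted. Over all genes, 49 of 8618 rose in non-cycling cDC1 (0.569%). Only 1 of the 26 passed the test of a difference between the cell classes, so most are not shown to be particular to cycling cells.
Serpinb1a, an inhibitor of neutrophil-type serine proteases, had the largest rise among called genes at a mean of 20 CPM or more. It was at 15.2, 14.9 and 13.3 CPM in leukemia vehicle 1 and 2 and WT vehicle, and at 50.1, 63.9 and 31.2 CPM in the panobinostat samples. Each panobinostat sample lay above each vehicle sample. The log2 fold change was 1.68 ± 0.17 (SE; edgeR adjusted p = 0.000147), and 1.95 without Car cells. Non-cycling cDC1 gave 1.995 ± 0.16, and the effect did not pass the test of a difference between the cell classes (edgeR adjusted p = 0.786).

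Of 14 precursor and growth factor receptor genes tested, Ccr2 and Ly6a rose and none fell. Ccr2, the receptor that draws precursors to tissue, was at 5.64, 7.19 and 3.13 CPM with vehicle and 18.5, 21.6 and 8.08 CPM with panobinostat, without overlap (log2 1.60 ± 0.24 SE, edgeR adjusted p = 0.0042). Ly6a, an interferon-inducible surface protein also known as Sca-1, was at 62.1, 44.8 and 26.9 CPM with vehicle and 104, 105 and 36.2 CPM with panobinostat. It was higher with panobinostat within each disease state, although WT panobinostat lay below leukemia vehicle. Its log2 change was 0.84 ± 0.13 SE (edgeR adjusted p = 0.00629).
The median of that list was 0.04 against -0.003 over all genes. Flt3, the receptor for the main dendritic cell growth factor, gave 0.13 and Kit 0.01, and neither was called.

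Called genes of the BCL2 family and of the immediate early and stress list came next. Bcl2a1b, an anti-apoptotic BCL2 relative, was at 218, 192 and 292 CPM with vehicle and 314, 347 and 353 CPM with panobinostat (log2 0.60 ± 0.09 SE, edgeR adjusted p = 0.00595), and its near-identical copy Bcl2a1a rose by 0.46, so reads between the pair are uncertain. They were the only genes called of 14 in the BCL2 family (median 0.04). Atf3, a stress-induced transcription factor, was at 143, 94.5 and 190 CPM with vehicle and 257, 222 and 223 CPM with panobinostat (log2 0.77 ± 0.14 SE, edgeR adjusted p = 0.0271). Atf3 was called in 13 of 20 processing settings and not with DESeq2 (DESeq2 adjusted p = 0.945). Dusp2, a phosphatase that shuts off MAP kinases, rose by 0.56, a call that was lost without Car cells (edgeR adjusted p = 0.0526). Txn1, thioredoxin, rose by 0.48 and Cycs, cytochrome c, by 0.36.
The remaining named genes that rose were Vwf (0.82), Ms4a6c (0.82), Apol7c (0.83), Lgals1, galectin 1 (0.76), Ccl4, a chemokine for T cells and monocytes (0.72), and Anapc15, a subunit of the ligase that Cdc20 activates (0.47). Vwf gave 0.49 and was not called without WT vehicle or without WT panobinostat (edgeR adjusted p = 0.142 and 0.124). Apol7c belongs to a family of close copies, of which Apol10b also rose, and it was not called with DESeq2. Of 20 processing settings, Apol7c and Dusp2 were called in 11, Ms4a6c in 12, and Vwf and Anapc15 in 10. Among 23 cDC1 genes outside the rule, Cd8a rose by 0.43 ± 0.07 SE (edgeR adjusted p = 0.00957) and Cd207 fell, and the list median was 0.12, or 0.03 without Car cells. Cst3, which is not in this list, was also called as rising.

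Cd207, the langerin gene of cDC1, was at 44.6, 26.5 and 59.9 CPM with vehicle and 21.5, 8.71 and 24.4 CPM with panobinostat. The groups did not overlap, and the log2 change was -1.23 ± 0.21 SE (edgeR adjusted p = 0.0173), or -1.36 without Car cells. Vim, vimentin, was at 304, 252 and 196 CPM with vehicle and 192, 187 and 135 CPM with panobinostat (log2 -0.48 ± 0.09 SE, edgeR adjusted p = 0.0204). Of 20 processing settings, Cd207 was called in 17 and Vim in 14. Nrgn, a calmodulin-binding protein, fell by 0.81, and without Car cells it gave -0.88, at below 8 CPM in 4 of 6 samples, and was not called (edgeR adjusted p = 0.447). Ctla2a was also lost. Newly called without Car cells were Slfn5, a growth-regulating schlafen (-1.32), Tgfbi (-0.67) and Jun (-0.33).

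**Figure D4:**
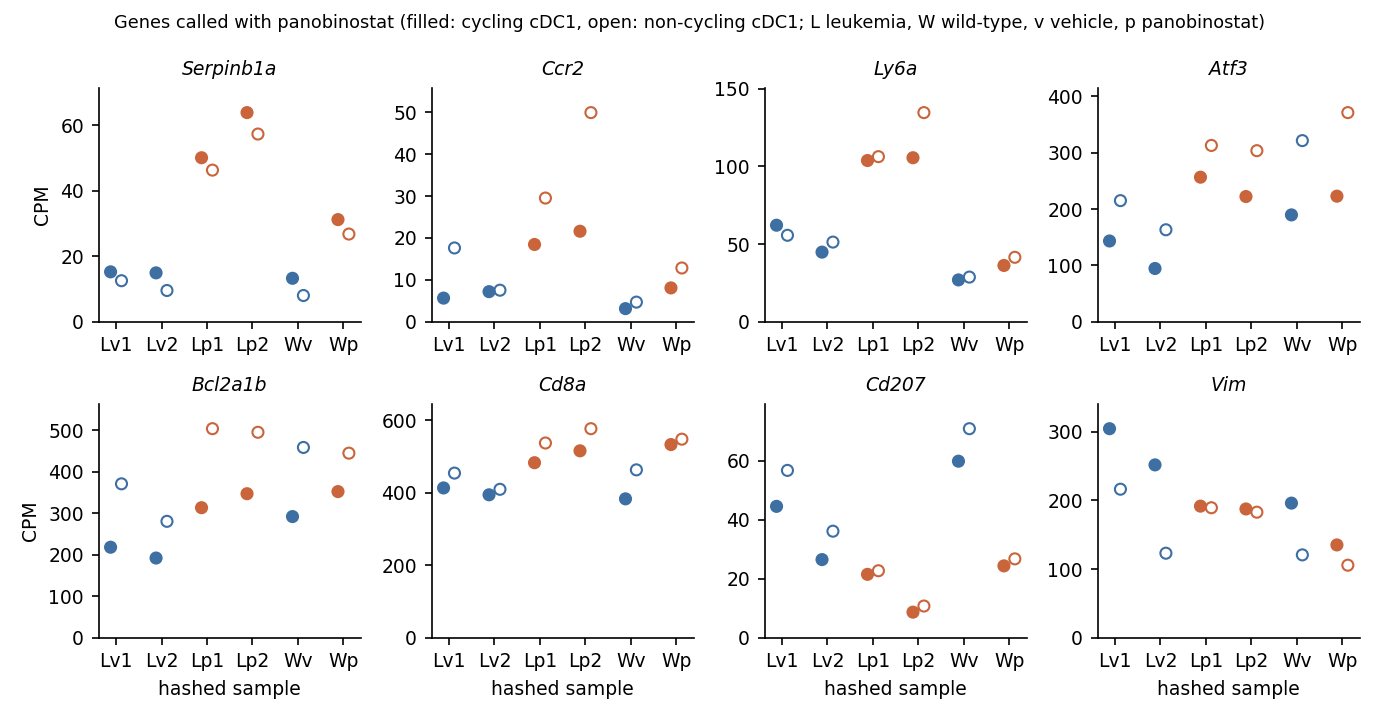
CPM (vertical axes, from 0) of 8 genes called with panobinostat in each hashed sample, filled for cycling and open for non-cycling cDC1, blue for vehicle and orange for panobinostat. Serpinb1a is between 13.3 and 15.2 CPM in the vehicle and between 31.2 and 63.9 CPM in the panobinostat samples of the cycling cells, and Cd207 is lower with panobinostat.

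The cell cycle lists held no called gene for panobinostat in cycling cDC1. Of 43 S-phase genes, 0 rose and 0 fell with edgeR or DESeq2, 8 had an unadjusted p under 0.05 and 37 had a positive sign (median 0.10, 0.08 without Car cells). Of 48 G2/M genes, 0 were called, 6 had an unadjusted p under 0.05 and 33 were positive (median 0.06, 0.16 without Car cells). Rrm2, the ribonucleotide reductase subunit of S phase, was at 118, 121 and 112 CPM with vehicle and 141, 151 and 134 CPM with panobinostat. It did not overlap between groups but was not called (log2 0.34, edgeR adjusted p = 0.154). None of 17 clustered histone genes was called either (median -0.22), nor of 10 histone deacetylase genes (median -0.02) with Hdac1 at 0.08 and Hdac2 at 0.17.
All 15 MHC class I and loading genes had a positive sign (median 0.22, 14 of 15 and 0.13 without Car cells), 9 had an unadjusted p under 0.05, and none was called. The closest was B2m, the light chain of MHC class I, at 0.24 (edgeR adjusted p = 0.139). Of 30 interferon-stimulated genes none was called with all cells, 11 had an unadjusted p under 0.05 and 9 were positive (median -0.17). Without Car cells 1 of 25 rose, Ifi27l2a (0.48), and 1 fell, Oasl1 (-2.25), with a median of -0.09.

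Some S-phase genes rose with panobinostat among the cDC1 called non-cycling. There, 33 of the 43 could be tested and 5 rose by edgeR, beside 49 of 8618 genes in all (0.569%). They were Mcm2 (0.77), Mcm3 (0.68), Mcm7 (0.92), Lig1 (0.78) and Rfc4 (1.05), which are parts of the helicase, a DNA ligase and a clamp loader. The median over the 33 was 0.53. In cycling cells the same genes gave -0.02, 0.13, 0.03, 0.24 and 0.08, with Mcm7 at 121, 105 and 106 CPM with vehicle and 124, 106 and 97.0 CPM with panobinostat.
The test of the difference between the classes called none of the list with all cells, at 16 with an unadjusted p under 0.05. Without Car cells it called Mcm3 (difference -0.68, edgeR adjusted p = 0.0319), Mcm7 (-0.99, 0.00534), Cdc45 (-1.66, 0.0292) and Cdca7 (-1.25, 0.0123). Non-cycling cells lack UMIs of the 3 cycle genes but still held 371 to 733 CPM of S-phase genes, against 2787 to 3573 CPM in the cycling cells.
Over all genes, 6 of 9439 had a panobinostat effect that differed between the classes (0.0636%; 12 without leukemia vehicle 1, 17 without leukemia vehicle 2, 27 without leukemia panobinostat 1 or WT vehicle and 28 without WT panobinostat), and 26 of 9147 without Car cells (0.284%), at 642 and 548 genes with an unadjusted p under 0.05. Nrgn, Hmox1, the heme-degrading enzyme, Hspb1, a small heat shock protein, and Fndc5 were called in both. Hmox1 rose in non-cycling cells (1.08) and gave -0.16 in cycling cells, where it was between 4.39 and 28.6 CPM. It is also a marker of red pulp macrophages, whose summed markers ran from 14.1 to 77.4 CPM in the cycling cells. In non-cycling cells these markers ran from 26.1 to 69.5 CPM with vehicle and from 31.1 to 133 CPM with panobinostat. The 5 tested genes of that marker list had a median difference between the classes of -1.89. Hmox1 is itself 1 of these genes and is part of the marker sums. The part of macrophages or their RNA in the Hmox1 difference was not tested. Lgals1 was called without Car cells alone (difference -0.73, edgeR adjusted p = 0.00176), as was Vim (-0.69, 4.76e-06).

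Leukemia against WT gave more calls, in a comparison of 4 hashed samples with 2. By the same edgeR fit, 44 of 9311 genes were higher in leukemia (0.473%) and 75 lower (0.805%), with 972 at an unadjusted p under 0.05. Without Car cells, whose share was highest in WT vehicle, 118 of 8511 were higher (1.39%) and 199 lower (2.34%), and 44 of the 44 and 71 of the 75 were called again.

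Ly6a, named above, and some interferon-stimulated genes were higher in leukemia. Ly6a was at 62.1, 44.8, 104 and 105 CPM in the leukemia samples and 26.9 and 36.2 CPM in WT, without overlap (log2 1.26 ± 0.14 SE, edgeR adjusted p = 0.000134). Of 30 interferon-stimulated genes tested, 4 were higher (among them Zbp1, Irgm1 and Rsad2), none was lower and 26 had a positive sign (median 0.37). Without Car cells 11 of 25 were higher and 25 of 25 positive (median 0.66). Rsad2, the antiviral viperin, was at 1.29 to 9.40 CPM in leukemia and at 0 in both WT samples.
Outside that list, Ifi211 and Mndal of the interferon-inducible DNA sensor family were higher (1.17 and 0.98), as were Slfn5 (1.24), Cd40, the receptor for T cell help (0.87), Serpina3g (0.82), Klrk1 (0.79), Tnf (0.78), Rrp1b (0.77), Anxa2, a membrane-binding annexin (0.85), and Lgals1 (0.83). Tnf was called in 9 of 18 processing settings, Cd40, Rrp1b and Slfn5 in 10, and Mndal and Serpina3g in 12. Without WT vehicle Mndal gave 0.49 and was not called (edgeR adjusted p = 0.319), and Ifi211 gave 0.71 and was. Serpina3g gave 0.54 without leukemia vehicle 1 and was not called (edgeR adjusted p = 0.0695). Slfn5 was at 54.2 and 58.0 CPM in the leukemia vehicle samples and at 12.3 to 16.7 CPM in the other 4 samples, so its leukemia difference was carried by the vehicle samples. It gave 0.13 without WT vehicle, not called (edgeR adjusted p = 0.895), and 2.15 without WT panobinostat. Of 23 cDC1 genes outside the rule, 3 were higher and none lower (median 0.05). They were Ifi205 at 0.62, Tlr3, the sensor of double-stranded RNA, at 0.62, and Cxcl9, a chemokine for T cells, at 0.86. Cxcl9 was at 612, 317, 612 and 686 CPM in leukemia against 273 and 316 CPM in WT, where leukemia vehicle 2 lay next to WT panobinostat.

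Some G2/M genes were lower in leukemia. Of 48 tested, 5 passed and were lower and none higher, and 46 had a negative sign (median -0.29). Without Car cells 12 of 46 were lower and 45 negative (median -0.30). Ube2c was at 226, 217, 203 and 161 CPM in leukemia and 313 and 306 CPM in WT (log2 -0.67 ± 0.10 SE, edgeR adjusted p = 0.00109). All leukemia samples lay below both WT samples. Nusap1, a spindle microtubule protein, was at 73.4, 77.9, 63.3 and 67.7 CPM against 109 and 97.6 CPM (log2 -0.59, edgeR adjusted p = 0.00245). Ccnb1, Cdca3 and Tubb4b were the other genes called, and Tubb4b was not called without Car cells (edgeR adjusted p = 0.156). Cdc20, whose promoter is shown above, gave -0.58 with all cells (edgeR adjusted p = 0.0779) and -0.50 without Car cells (0.0306). Ccnb2 gave -0.30 and was called in neither.
The summed G2/M list was at 4328 to 4709 CPM in leukemia and 5273 to 5310 CPM in WT, and without Car cells at 3942 to 4241 and 4464 to 4880 CPM. Most S-phase genes had the opposite sign without passing the test. Of 43, 1 was higher (Cdca7, a chromatin factor of S phase, 0.67), none was lower and 38 were positive (median 0.17, 39 of 43 and 0.22 without Car cells), and Mcm5 gave 0.23 (edgeR adjusted p = 0.394). Of 17 nucleotide and polyamine synthesis genes 14 were positive and none was called (median 0.18), and without Car cells 2 were higher, Mthfd1 and Srm. The median over all genes was -0.0004.

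**Figure D5:**
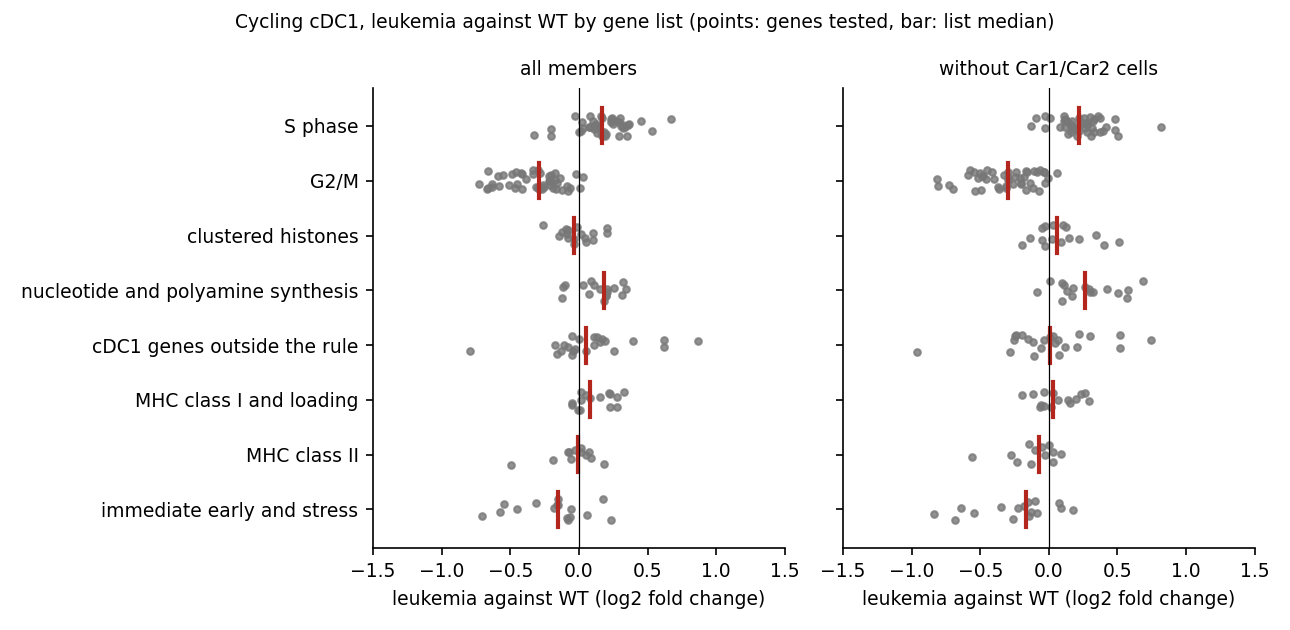
Log2 fold change of leukemia against WT in cycling cDC1 (horizontal axis) for each tested gene of 8 lists, with the list median as a red bar, with all cells (left) and without Car cells (right). The G2/M points lie almost all left of 0 (median -0.29) and the S-phase points mostly right of it (0.17).

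Outside the cell cycle, Apoe and Il1b were among the genes lower in leukemia. Apoe, apolipoprotein E, was at 52.5, 80.2, 64.1 and 70.3 CPM against 140 and 209 CPM in WT (log2 -1.42 ± 0.13 SE, edgeR adjusted p = 1.41e-05). Il1b, the inflammasome cytokine, was at 32.2, 38.1, 47.0 and 54.8 CPM against 81.3 and 78.9 CPM (log2 -0.92 ± 0.13 SE, edgeR adjusted p = 0.00103). Both were lower in each leukemia sample. Apol7c (-1.07), Fam71a (-1.27), Galc, a lysosomal galactosidase (-0.89), Dnajb14 (-0.87), Armc8 (-0.79), Hspa1b, an inducible heat shock chaperone (-0.70), Rilpl2 (-0.67), Slc4a7 (-0.64) and Sat1, the polyamine acetyltransferase (-0.63), were lower too. Of 18 processing settings, Rilpl2 was called in 10 and Slc4a7 in 12. Without WT panobinostat Hspa1b gave -0.34 and was not called, and Armc8 gave -0.52, and without WT vehicle Apol7c gave -0.58, both called. Apol7c thus rose with panobinostat and was lower in leukemia.
Btg1 and Btg2, genes that restrain proliferation, were the members called among 17 cell cycle inhibitor genes, at -0.37 and -0.51 (list median -0.14). H2-Oa, a brake on MHC class II loading, was the 1 gene of 12 called in that list (-0.49). Hba-a1, an alpha globin with a near-identical copy, was lower with all cells (-0.75) and not called without Car cells (-0.13, edgeR adjusted p = 0.648).

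The number of calls depended on single hashed samples. Leaving out 1 sample at a time gave 7 to 114 genes that rose with panobinostat and 1 to 54 that fell, the high ends without WT panobinostat (114 and 54) and without WT vehicle (86 and 50), and the low ends without leukemia panobinostat 2 (7 and 1). Without leukemia vehicle 2 it was 8 and 3, without leukemia panobinostat 1 10 and 3, and without leukemia vehicle 1 24 and 19. For leukemia against WT it gave 19 to 191 higher and 34 to 315 lower, the low ends without leukemia panobinostat 1 and the high ends without WT panobinostat. Serpinb1a and Txn1 were called with panobinostat in 20 of 20 settings, and Ly6a, Ifi211, Anxa2, Apoe, Fam71a, Il1b, Dnajb14, Armc8, Ube2c and Sat1 with leukemia in 18 of 18. Among the genes named by fold change, the fewest were 10 of 20 for Vwf and Anapc15 with panobinostat. With leukemia the fewest were 9 of 18, for Tnf.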

How the data were processed

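Counts (whole UMI numbers per gene, antibody tag or hashtag and barcode) were used as the authors deposited them, in 1 matrix of 31053 genes, 2 antibody tags and 6 hashtags. The tools listed are Seurat 3.1.0 and Cell Ranger 3.1.0 and the builds are GRCm38 and mm10, per the submitters' processing notes, which give no role or order here. The 3 submitted samples are libraries of the same capture and share its barcodes, so the condition of a cell was read from its hashtag name. Of 36904 barcodes with 500 genes and at most 10% mitochondrial UMIs, 41.6% failed the hashtag ratio of 5. The members, gene lists and tests were chosen with earlier results of these data known.

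UMIs of the member cells were summed per hashed sample (1771902 to 6187115 UMIs from 81 to 276 cells) and tested with edgeR 4.0.16 (R 4.3.3; TMM, filterByExpr, glmQLFit, glmQLFTest, treatment plus disease), with Benjamini-Hochberg adjustment over all genes tested and a threshold of 0.05. Difference between classes was the class by treatment term with the hashed sample as block. CPM is per 1000000 UMIs of the summed cells. Ratios between classes are log2 of CPM + 1, averaged over hashed samples, with no test. Shares and antibody medians were compared by exact permutation. Named genes were up to 12 per direction with the largest fold change among called genes at a mean of 20 CPM or more, the markers of the rule, 2 to 4 genes per list and up to 15 per direction beside non-cycling cells. Other genes (Cst3, Cycs, Apol10b, Ctla2a, Itgax, Itgae, Flt3, Kit, Hdac1, Hdac2, Mcm5, Oasl1, Ifi27l2a and genes newly called without Car cells) were chosen after their values were seen. Alternatives were other hashtag, mitochondrial, cycle and UMI limits, thinning, other normalization and filters, DESeq2 1.42.0 without independent filtering, a replicate block, leaving out each hashed sample, and leaving out Car cells. In simulated counts of the panobinostat comparison (9164 genes), edgeR recovered 79.6% of changes of 1 and 100% of changes of 2 on the log2 scale, with 14 false of 191 calls. The common biological coefficient of variation was 8.35%.
Deviations of same-numbered leukemia samples from their group means correlated at r = -0.018 over 9311 genes. This 1 value, taken over genes of all levels, cannot settle whether samples with the same number were paired. Some genes are not reported here.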

Additional observations from a re-analysis of the deposited data

Results flagged for a closer look

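The panobinostat effect in cycling cDC1 differed from that in non-cycling cDC1 for 6 genes by edgeR's test of the difference (log2, cycling minus non-cycling). It was -2.02 for Nrgn, -1.58 for Hspb1, -1.27 for Ccnd2, -1.23 for Hmox1, -0.98 for Ifi27 and 0.80 for Fndc5. Ccnd2 and Ifi27 were not called without Car cells (edgeR adjusted p = 0.70 and 0.836).

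The S-phase share moved in opposite directions in the disease states with all cells: panobinostat minus vehicle was 4.43 points in leukemia and -1.92 points in WT, with 1 WT sample each. Without Car cells it was 2.37 and -2.35 points. After thinning to 4000 UMIs the leukemia groups overlapped, at 44.7 and 41.1% with vehicle and 43.5 and 42.3% with panobinostat. The median UMIs per cycling cDC1 differed by 756 UMIs in leukemia and -1097 UMIs in WT with all cells. Without Car cells both differences were positive, 151 and 871.5 UMIs. Neither difference between the disease states was tested.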

How the results depend on the processing

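Of the genes named for panobinostat, 200 results stayed on their side of the threshold over the alternatives and 85 lost the call. For leukemia these were 335 and 73, for the difference between classes 76 and 32, and no named gene changed sign. The number of calls moved more, and the cause was not tested.

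Genes that rose and fell with panobinostat (22 and 4) numbered 22 and 7 at a hashtag ratio of 3, 38 and 42 at a ratio of 10, 34 and 7 with 2 or more cycle UMIs, 26 and 9 with 6 or more, 5 and 0 without cells above the 95th percentile of UMIs, 5 and 1 after thinning to 4000 UMIs, 29 and 17 without Car cells, 11 and 4 without TMM factors, 85 and 100 without a filter on low counts, 68 and 43 in leukemia samples alone, and 14 and 2 with DESeq2. With a replicate block, rose and fell numbered 11 and 2. Leaving out each hashed sample gave 7 (leukemia panobinostat 2) to 114 (WT panobinostat) and 1 to 54, from the same samples.

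Genes higher and lower in leukemia (44 and 75) numbered 69 and 136 with 2 or more cycle UMIs, 28 and 44 with 6 or more, 24 and 47 without cells above the 95th percentile, 13 and 24 after thinning, 118 and 199 without Car cells, 93 and 214 without the filter, and 20 and 36 with DESeq2. Leaving out each hashed sample gave 19 (leukemia panobinostat 1) to 191 (WT panobinostat) and 34 to 315, from the same samples.

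Genes whose panobinostat effect differed between classes (6) numbered 28 and 41 at hashtag ratios of 3 and 10, 23 with 2 or more cycle UMIs, 3 without cells above the 95th percentile, 0 by edgeR after thinning, 26 without Car cells, 19 without TMM factors, 39 without the filter and 27 in leukemia alone. Leaving out each hashed sample gave 6 (leukemia panobinostat 2) to 28 (WT panobinostat).

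The panobinostat difference in S-phase share of S plus G2/M UMIs in cycling cDC1 turned to -0.527 points after thinning, and was 0.624 to 5.60 points without each hashed sample. The CD11c ratio of cycling to non-cycling cells was 0.37 to 0.49 on the log2 scale without each hashed sample, at an exact sign-flip permutation p of 0.0625, the smallest 5 pairs allow. The log2 ratio of Siglec-H antibody counts in cycling against non-cycling cDC1 reached an exact sign-flip permutation p of 0.03125 at a hashtag ratio of 10 (0.0510), with 2 or more cycle UMIs (0.0537) and with 6 or more (0.0679). The log2 difference of CD11c antibody counts with panobinostat in cycling cDC1 turned to -0.00294 as CD11c over both tags, -0.0260 without leukemia vehicle 1 and -0.0390 without WT panobinostat, the lowest, and reached 0.102 at most.

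Depth limits these results: samples held 81 to 276 member cells, and WT had no replicate.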
